A study of Homo sapiens with 4 samples.

Results

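The NRF2 antioxidant and detoxification genes are 39 genes chosen by name: the regulators of the pathway and the enzymes and transporters that handle glutathione, thioredoxin, NADPH, carbonyls, quinones and conjugates. All 39 had exactly 1 row among the 57815 rows of the deposited expression table. The table covers 4 RNA-seq libraries from AGS and MKN1, established human gastric cancer cell lines, in a study that looked for genes under HOXB9, a homeobox transcription factor. Cells of each line were transfected with Lipofectamine 2000 and either a scrambled control siRNA (siScramble, labelled WT) or an siRNA against HOXB9 (siHOXB9, labelled HOXB9 knockdown), and 1 library was made per line and siRNA. The time after transfection is not in the labels, and no untransfected group is used here. With 1 library per group there is no replicate error within a line.

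NRF2, encoded by NFE2L2, is a transcription factor that KEAP1 holds in the cytoplasm and hands to a ubiquitin ligase, so that it is normally short-lived. When reactive cysteines of KEAP1 are modified by oxidants or electrophiles, NRF2 escapes, pairs with a small MAF protein such as MAFG and binds the antioxidant response element, a short DNA motif in its target genes. The targets supply glutathione and NADPH, reduce peroxides, quinones and aldehydes, attach glutathione or glucuronic acid to foreign compounds and pump the products out of the cell.

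The targeted gene was checked first. HOXB9 was at 16.4 FPKM (fragments per kilobase of transcript, scaled to sequencing depth) in AGS siScramble and 4.44 FPKM in AGS siHOXB9, and at 1.14 FPKM in MKN1 siScramble and 0.218 FPKM in MKN1 siHOXB9. Depth, estimated from low values, was about 10500000 to 12800000 fragments per library, at which 1 fragment in a transcript of 2 kb gives 0.0444 to 0.0541 FPKM. The HOXB9 values correspond to an estimated 493 and 129 fragments in AGS and 30.6 and 5.35 fragments in MKN1, siScramble first. In MKN1 the target was thus low already with siScramble, and its decrease there rests on few fragments. The keratin genes KRT8 and KRT18, which mark simple epithelium, were at 654 FPKM or more in every library, while EPCAM was at 328 and 359 FPKM in the AGS libraries and 2.14 and 2.70 FPKM in the MKN1 libraries. Of 7 gastric markers, TFF1 (26.2 and 14.8 FPKM), PGC (21.7 and 18.6 FPKM) and CLDN18 (1.53 and 1.15 FPKM) reached 1 FPKM in the AGS libraries. In MKN1 only TFF1 did, at 1.20 and 1.28 FPKM. The mucin genes MUC5AC and MUC6 were at or under 0.0454 FPKM in all 4 libraries. Of the leukocyte markers, LYZ and CD68 reached 1 FPKM in both lines, CD14 stayed at or under 0.467 FPKM, CD3E was listed at 0 in all 4 libraries, and PTPRC was at 0.0183 FPKM in AGS siHOXB9 and at 0 in the other libraries.

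The antioxidant response element was searched in the promoter windows of RefSeq (GRCh38.p14), which run from 250 bases before to 50 bases after a gene's start. Its core was taken as TGACNNNGC on either strand, and it overlaps the AP-1 motif TGACTCA where the middle bases are TCA. Of 30 members with a window, 12 (40%) held a core, against 13.3% of all 35116 windows and 19.5% of 9561 genes with a window and at least 1 FPKM in a library. A gene was counted if any of its windows held a core, so the share of genes is the like comparison. The members were chosen as genes of the pathway that acts through this element, so their higher share is not independent evidence. TGACTCAGC, which satisfies both motifs, was in 3 of the 30 members (10%), in 0.561% of all windows and in 0.669% of the genes with at least 1 FPKM. The windows below belong to 6 members that differed between the lines, to GCLM, whose change with siHOXB9 differed in direction between them, and to GSTP1, the member with the highest level. Each is printed 5′ to 3′ on the gene's own strand, with the match in capitals, which reads GCNNNGTCA where the core lies on the opposite strand.
ME1: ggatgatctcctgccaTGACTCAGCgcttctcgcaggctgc
PIR: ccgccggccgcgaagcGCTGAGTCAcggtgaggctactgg
GSTP1: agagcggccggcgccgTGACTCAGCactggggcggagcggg
TXNRD1: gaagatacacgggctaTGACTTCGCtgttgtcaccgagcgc
CBR1: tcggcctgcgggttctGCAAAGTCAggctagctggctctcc
GPX2: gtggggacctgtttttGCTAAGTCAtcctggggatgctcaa
IDH1: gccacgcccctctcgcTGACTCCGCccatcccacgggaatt
GCLM: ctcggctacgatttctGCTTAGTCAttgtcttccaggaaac

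These windows lie at chr6:83431164-83431204 on the reverse strand (ME1), chrX:15493284-15493323 reverse (PIR), chr11:67583730-67583770 forward (GSTP1), chr12:104215664-104215704 forward (TXNRD1), chr21:36069849-36069889 forward (CBR1), chr14:64942843-64942883 reverse (GPX2), chr2:208255190-208255230 reverse (IDH1) and chr1:93909440-93909480 reverse (GCLM). The match began 137 bases before the gene's start in ME1, 66 in GSTP1, 99 in TXNRD1, 159 in CBR1, 122 in GPX2, 143 in IDH1 and 34 in GCLM, and 26 bases after the start in PIR. ME1 held a second core 11 bases after its start, TXNRD1 a second 8 bases before its start and another 102 bases before a further start, and KEAP1 held a pair. The other members with a core were EPHX1, KEAP1, MGST1 and PGD. AKR1C1, AKR1C2, AKR1C3, ABCC2, TKT, GPX1 and AKR1B1 also differed between the lines, and their windows held no core. SLC7A11, CBR3 and AKR1B10 differed too but had no window. A match describes letters in a window and is no evidence of binding. The windows hold no data from these libraries.

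The members spanned a wide range of levels, and 27 of 39 were at 10 FPKM or more in every library. Of these, 12 were at 100 FPKM or more in every library: GPX1, GPX4, TXN, PRDX1, PRDX6, PGD, TALDO1, TKT, AKR1B1, NQO1, MGST1 and GSTP1. At the other end, CES1, a carboxylesterase, was listed at 0 in both siScramble libraries and at 0.0507 and 0.0596 FPKM in AGS siHOXB9 and MKN1 siHOXB9. The median member was at 46.7 FPKM in AGS siScramble, 40.5 in AGS siHOXB9, 39.0 in MKN1 siScramble and 54.1 in MKN1 siHOXB9. Summed over the members, the FPKM made up 0.856% and 0.855% of all FPKM in the AGS libraries, and 1.01% and 1.07% in MKN1 siScramble and MKN1 siHOXB9. In bulk RNA, fewer expressing cells and less RNA per cell cannot be told apart.

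**Figure D1:**
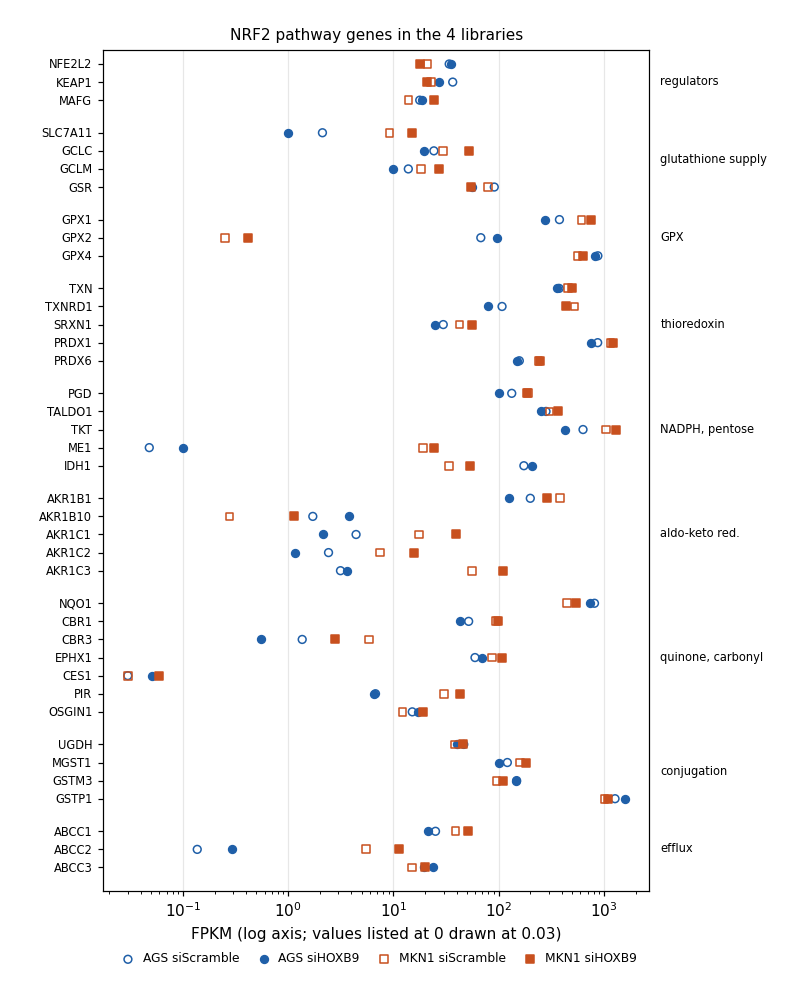
Level of each of the 39 members in the 4 libraries, on a log axis of FPKM, grouped by role; circles are AGS, squares MKN1, open symbols siScramble and filled symbols siHOXB9, 1 library each. The 2 libraries of a line lie close together for most members, and the widest gaps between the lines are those of GPX2, at 67.8 and 96.2 FPKM in AGS and under 1 FPKM in MKN1, and ME1, at under 1 FPKM in AGS and 19.1 and 24.4 FPKM in MKN1.

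The within-line changes are differences of log2(FPKM + 1), siHOXB9 minus siScramble, which understate the change of low genes. In AGS the members leaned lower with siHOXB9: of 36 members with at least 1 FPKM in an AGS library, 26 were below 0 and 10 above, with a median of -0.20. Over all 13252 rows at that level the median was -0.06 with 57% below 0 and 43% above. In MKN1 the members leaned higher: of 37 measured members 30 were above 0 and 7 below, with a median of 0.31. There the median of all 13122 rows was 0.09 with 63.1% above 0 and 36.9% below. A 2-fold change (at least 1 in size) was reached by 0 members in AGS, where 3.89% of all rows reached it (1.68% higher and 2.21% lower), and by 1 member in MKN1, AKR1C1, where 4.05% did (2.1% higher and 1.94% lower). These counts depend on the added 1 FPKM: with 0.1 FPKM in its place, 1 member was 2-fold higher and 4 lower in AGS, and 4 higher and 1 lower in MKN1. The share of all rows past 2-fold with 0.1 FPKM was not computed, so these latter counts have no background to be read against. None of the changes can be tested within a line.

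The same genes were then followed across the lines. Of 35 members measured in both lines, 20 (57.1%) were lower in AGS and higher in MKN1, a pattern held by 34.9% of the 11547 rows measured in both. After rescaling each library to the same total the pattern was held by 14 members (40%) and 22.1% of rows, after centring by 15 (42.9%) and 22.3%, and after quantile normalization by 14 (40%) and 22.5%. A further 8 were higher in both lines (29.2% of all rows) and 6 lower in both (23.9% of all rows). NFE2L2 alone was higher in AGS and lower in MKN1 (11.9% of all rows). The MKN1 change exceeded the AGS change by at least 1 in 4 members, AKR1C1, AKR1C2, SLC7A11 and GCLC (11.4% of 35), against 3.77% of all rows. The difference between the lines has no residual degrees of freedom with 4 libraries and was not tested.

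**Figure D2:**
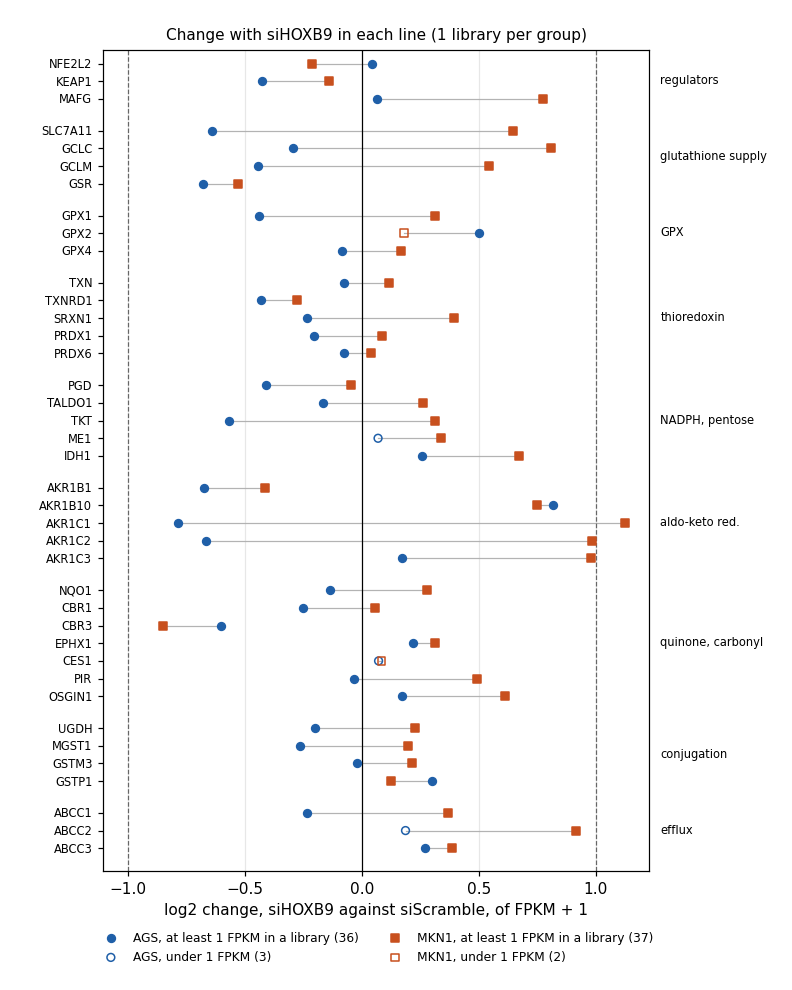
Change of each member with siHOXB9 in AGS (circles) and MKN1 (squares), on the scale of log2(FPKM + 1) with 1 library per group; open symbols mark members under 1 FPKM in both libraries of that line, and dashed lines mark 2-fold. Most squares lie right of 0 and most circles left of it, and AKR1C1 in MKN1, at 1.12, is the only symbol past a dashed line.

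Among the regulators, the transcript of NRF2 itself had log2 changes of 0.04 in AGS and -0.21 in MKN1. NFE2L2 was at 33.9 FPKM with siScramble and 35.0 FPKM with siHOXB9 in AGS, and at 21.2 and 18.1 FPKM in MKN1. KEAP1, the substrate adaptor that marks NRF2 for degradation, was at 36.7 and 27.0 FPKM in AGS and 23.0 and 20.8 FPKM in MKN1. MAFG, the small MAF partner, was at 17.8 and 18.7 FPKM in AGS and 13.9 and 24.5 FPKM in MKN1, a log2 change of 0.78 there. MAFG shares exon sequence on its own strand with SIRT7, whose row was at 73.8 and 60.0 FPKM in AGS and 54.5 and 61.4 FPKM in MKN1. In both lines KEAP1 was lower with siHOXB9. The AGS libraries were above the MKN1 libraries in NFE2L2 and KEAP1, and the lines overlapped in MAFG. The share of all rows without such overlap was not computed, so these statements, here and below, have no background to be read against. NFE2L2 lies at chr2:177227595-177392697 on the reverse strand (GENCODE 29, GRCh38), where it overlaps exons of AGPS on the other strand.

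Of the genes that supply glutathione, 0 of 4 were above 0 in AGS (median -0.54) and 3 of 4 in MKN1 (median 0.59). SLC7A11, the cystine importer that brings in the limiting amino acid, was at 2.12 FPKM with siScramble and 1.00 FPKM with siHOXB9 in AGS, and at 9.21 and 15.0 FPKM in MKN1. GCLC, the catalytic subunit of glutamate-cysteine ligase, was at 24.3 and 19.6 FPKM in AGS and 29.8 and 52.8 FPKM in MKN1. GCLM, the modifier subunit of the same enzyme, was at 13.9 and 9.94 FPKM in AGS and 18.5 and 27.4 FPKM in MKN1. All 3 were lower with siHOXB9 in AGS, with log2 changes of -0.64, -0.29 and -0.44, and higher in MKN1, with 0.64, 0.81 and 0.54. GSR, glutathione reductase, which recycles oxidised glutathione, was at 91.0 and 56.4 FPKM in AGS and 79.5 and 54.8 FPKM in MKN1, lower with siHOXB9 in both. SLC7A11 (chr4:138164097-138242349, reverse strand) shares exon sequence with SLC7A11-AS1 on the other strand, whose row was at 0.756 and 0.478 FPKM in AGS and 5.35 and 8.35 FPKM in MKN1. No strand-keeping step is described in the protocol, so reads of such a pair cannot be told apart.

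The glutathione peroxidases, selenium enzymes that reduce peroxides with glutathione, included a member that only AGS held above 1 FPKM. GPX1, the main cytosolic form, which GENCODE 29 types as a polymorphic pseudogene, was at 378 FPKM with siScramble and 279 FPKM with siHOXB9 in AGS, and at 613 and 762 FPKM in MKN1. GPX4, which reduces lipid peroxides in membranes, was at 877 and 828 FPKM in AGS and 561 and 631 FPKM in MKN1, and its AGS change turned from -0.08 to 0.01 after rescaling to the same total. GPX2, a gastrointestinal form, was at 67.8 and 96.2 FPKM in AGS and 0.253 and 0.420 FPKM in MKN1. The AGS libraries were thus above both MKN1 libraries in GPX2 and GPX4 and below them in GPX1.

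In the thioredoxin arm all 5 members were lower with siHOXB9 in AGS, and 4 of 5 were higher in MKN1, by small amounts. TXN, thioredoxin, was at 376 FPKM with siScramble and 356 FPKM with siHOXB9 in AGS, and at 457 and 495 FPKM in MKN1. TXNRD1, the selenium-containing reductase that recharges thioredoxin, was at 108 and 79.7 FPKM in AGS and 525 and 433 FPKM in MKN1. It was the exception in MKN1 and was lower with siHOXB9 in both lines, with log2 changes of -0.43 and -0.28. SRXN1, sulfiredoxin, which repairs over-oxidised peroxiredoxins, was at 29.8 and 25.1 FPKM in AGS and 42.6 and 56.3 FPKM in MKN1. PRDX1, an abundant peroxiredoxin, was at 874 and 758 FPKM in AGS and 1155 and 1228 FPKM in MKN1. PRDX6, which also has phospholipase activity, was at 157 and 149 FPKM in AGS and 239 and 246 FPKM in MKN1. Small changes turn sign with the scaling: rescaling each library to the same total turned TXN to 0.02 and PRDX6 to 0.02 in AGS and PRDX6 to -0.04 in MKN1, and centring on the median turned PRDX1 to -0.01 in MKN1.

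The NADPH and pentose phosphate genes make the reducing power on which both systems draw. TKT, transketolase, was at 634 FPKM with siScramble and 428 FPKM with siHOXB9 in AGS, and at 1054 and 1311 FPKM in MKN1. TALDO1, transaldolase, was at 282 and 251 FPKM in AGS and 305 and 365 FPKM in MKN1. PGD, which makes NADPH in the oxidative branch, was at 133 and 100.2 FPKM in AGS and 191 and 186 FPKM in MKN1. TKT and TALDO1 parted between the lines and PGD was lower in both, with a log2 change of -0.41 in AGS and -0.04 in MKN1. The cytosolic NADP-dependent enzymes outside that route were split by line rather than by siRNA. ME1, malic enzyme, was at 0.0480 and 0.0995 FPKM in AGS, which correspond to an estimated 1.92 and 3.87 fragments, and at 19.1 and 24.4 FPKM in MKN1, an estimated 687 and 802 fragments. IDH1, isocitrate dehydrogenase, was the reverse, at 174 and 208 FPKM in AGS and 33.6 and 54.1 FPKM in MKN1. IDH1 was higher with siHOXB9 in both lines, with log2 changes of 0.26 and 0.67.

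The aldo-keto reductases reduce aldehydes and ketones, including steroids and lipid peroxidation products, and had a median change of -0.67 in AGS and 0.98 in MKN1. AKR1C1 was at 4.42 FPKM with siScramble and 2.15 FPKM with siHOXB9 in AGS, and at 17.6 and 39.5 FPKM in MKN1. AKR1C2 was at 2.42 and 1.16 FPKM in AGS and 7.45 and 15.7 FPKM in MKN1. Both were thus lower with siHOXB9 in AGS, with log2 changes of -0.79 and -0.67, and higher in MKN1, with 1.12 and 0.98, and their lowest MKN1 value exceeded their highest AGS value. AKR1C1 (chr10:4963253-4983283, forward strand) and AKR1C2 (chr10:4987400-5018031, reverse strand) are neighbouring near-identical copies between which the authors' counting could split reads. Summed, the pair was at 6.85 and 3.30 FPKM in AGS and 25.0 and 55.2 FPKM in MKN1, with changes of -0.87 and 1.11. AKR1C3, a prostaglandin and steroid reductase of the same cluster, was at 3.15 and 3.67 FPKM in AGS and 55.8 and 111 FPKM in MKN1. It was close to its control in AGS, at a log2 change of 0.17, and higher in MKN1, at 0.98.

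The 2 members of the AKR1B branch went opposite ways and did so in both lines. AKR1B1, aldose reductase, was at 200.1 FPKM with siScramble and 125 FPKM with siHOXB9 in AGS, and at 383 and 288 FPKM in MKN1. AKR1B10, a retinal and aldehyde reductase of the gut, was at 1.72 and 3.79 FPKM in AGS and 0.278 and 1.15 FPKM in MKN1. The log2 changes of AKR1B1 were -0.68 and -0.41, and those of AKR1B10 0.82 and 0.75. With a pseudocount of 0.1 in place of 1 FPKM, AKR1B10 was 2-fold higher in both lines, at 1.10 in AGS and 1.72 in MKN1. Its MKN1 siScramble value of 0.278 FPKM rests on few fragments, as 1 fragment in a transcript of 2 kb gives 0.0497 FPKM there.

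**Figure D3:**
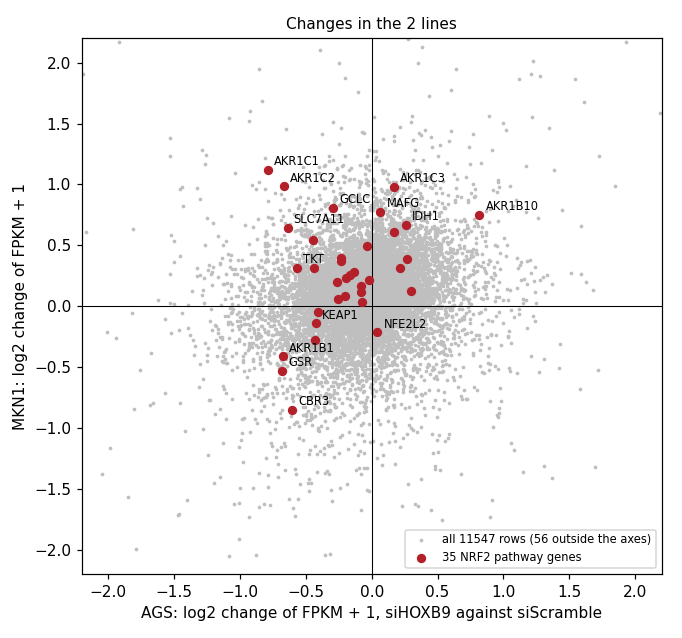
Log2 change of FPKM + 1 with siHOXB9 in AGS (horizontal) against MKN1 (vertical) for the 35 members measured in both lines (red) and all 11547 such rows (grey), 1 library per group in each line. The upper left region, lower in AGS and higher in MKN1, holds 20 of the 35 members, led by AKR1C1 and AKR1C2, while GSR, AKR1B1 and CBR3 lie at the lower left.

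Quinone, carbonyl and epoxide enzymes varied mostly by line. NQO1, the quinone reductase often used as a readout of NRF2, was at 815 FPKM with siScramble and 740.3 FPKM with siHOXB9 in AGS, and at 450.4 and 547 FPKM in MKN1. CBR1, a carbonyl reductase, was at 51.9 and 43.4 FPKM in AGS and 95.0 and 98.9 FPKM in MKN1, where its change of 0.06 turned to -0.02 after rescaling. EPHX1, microsomal epoxide hydrolase, was at 59.7 and 69.5 FPKM in AGS and 87.1 and 109 FPKM in MKN1. EPHX1 shares exon sequence with TMEM63A on the other strand, whose row was at 55.0 and 66.5 FPKM in AGS and 8.57 and 12.9 FPKM in MKN1. NQO1 was higher in both AGS libraries, and CBR1 and EPHX1 were higher in both MKN1 libraries. No share of all rows was computed for such separation of the lines. CBR3, a paralog of CBR1, was lower with siHOXB9 in both lines, at 1.36 and 0.557 FPKM in AGS and 5.83 and 2.79 FPKM in MKN1. These correspond to an estimated 16.2 and 6.32 fragments in AGS and 61.3 and 27.2 in MKN1. CBR3 overlaps CBR3-AS1 on the other strand, whose row was at 1.501 and 3.24 FPKM in AGS and at 0.0858 and 0.0859 FPKM in MKN1. PIR, an iron-binding nuclear protein, was at 6.77 and 6.59 FPKM in AGS, a change of -0.03 that turned to 0.05 after rescaling, and at 30.2 and 42.9 FPKM in MKN1. OSGIN1, a growth inhibitor induced by oxidative stress, was at 15.1 and 17.2 FPKM in AGS and 12.2 and 19.2 FPKM in MKN1, with overlapping lines and a log2 change of 0.61 in MKN1.

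Conjugation enzymes showed the smallest changes, at most 0.30 in size in either line. GSTP1, the main glutathione S-transferase of epithelial tumours, was the most abundant member in 2 libraries, at 1277 FPKM with siScramble and 1574 FPKM with siHOXB9 in AGS, and was at 1013 and 1104 FPKM in MKN1. GSTM3, a mu-class transferase, was at 148 and 146 FPKM in AGS, a change of -0.02 that turned to 0.08 after rescaling, and at 95.5 and 111 FPKM in MKN1. MGST1, a membrane-bound transferase, was at 121 and 101 FPKM in AGS and 159 and 182 FPKM in MKN1. GSTP1 was higher with siHOXB9 in both lines, whereas MGST1 was lower in AGS and higher in MKN1. UGDH, which makes the UDP-glucuronic acid used in glucuronidation, was at 46.7 and 40.5 FPKM in AGS and 38.8 and 45.7 FPKM in MKN1.

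Of the efflux pumps for conjugates, all 3 were higher with siHOXB9 in MKN1. ABCC1 was at 25.2 FPKM with siScramble and 21.2 FPKM with siHOXB9 in AGS, and at 39.0 and 50.7 FPKM in MKN1. ABCC2, an apical pump, was at 0.137 and 0.294 FPKM in AGS and 5.51 and 11.3 FPKM in MKN1. ABCC3, a basolateral pump, was at 19.7 and 24.0 FPKM in AGS and 14.9 and 19.8 FPKM in MKN1. Their log2 changes in MKN1 were 0.37, 0.92 and 0.38, and ABCC3 was the only one of the 3 whose libraries overlapped between the lines.

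Changes shared by both lines were then tested with limma, with line and siRNA as terms on the log2(FPKM + 1) scale, over 13758 rows with at least 1 FPKM in 2 or more libraries. The fit rests on 1 residual degree of freedom, to which limma adds 6.17 prior degrees of freedom drawn from the variances of all rows tested. No member passed an adjusted p of 0.05 (0 of 38 tested), and of all rows 1 did (0.00727%), RP11-192N10.2. At an unadjusted p under 0.05 there were 6 members (GSR, IDH1, AKR1B1, AKR1B10, AKR1C3 and CBR3), and 7.12% of all rows. The smallest adjusted p of a member was that of AKR1B10, with an estimate of 0.78 (SE 0.21, unadjusted p 0.00727, limma adjusted p 0.513). GSR was estimated at -0.60 (SE 0.17, limma adjusted p 0.545) and CBR3 at -0.73 (SE 0.22, limma adjusted p 0.592). All 6 had the same direction in both lines. The fit gives a small p mainly where the lines agree, so this shared direction is no separate support.

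The difference between the lines came from the same fit, with a call at an adjusted p of 0.05 or under and a size of at least 1. Of 38 members tested 16 were called, 13 higher in MKN1 and 3 lower. Of all rows 37.1% were called, 16.2% higher in MKN1 and 20.9% lower. The 13 were ME1, AKR1C3, ABCC2, AKR1C1, SLC7A11, TXNRD1, PIR, AKR1C2, CBR3, TKT, GPX1, AKR1B1 and CBR1, and the 3 were GPX2, IDH1 and AKR1B10. The median difference of the members, MKN1 minus AGS, was 0.64, against -0.10 over all rows. Each line is represented by libraries with different siRNAs, so these p-values measure the spread left after both terms and not that between repeat cultures.

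ME1 was estimated at 4.40 (SE 0.22, limma adjusted p 5.05e-06), AKR1C3 at 4.18 (SE 0.24, adjusted p 9.98e-06) and ABCC2 at 2.88 (SE 0.25, adjusted p 7.9e-05). GPX2 was at -5.94 (SE 0.21, limma adjusted p 1.5e-06), and IDH1 was at -2.13 (SE 0.18, adjusted p 6.8e-05). These 5 mark a peroxidase, a pair of NADP-dependent enzymes, a steroid reductase and a pump whose RNA was far higher in one line than in the other. ME1 and ABCC2 were under 1 FPKM in both AGS libraries, and GPX2 was under 1 FPKM in both MKN1 libraries. Each passed the filter only through the line where it was high, so its p-value is no separate support for a difference. AKR1C1 was at 2.73 (SE 0.41, limma adjusted p 0.00106), AKR1C2 at 2.13 (SE 0.37, adjusted p 0.00226), SLC7A11 at 2.35 (SE 0.32, adjusted p 0.000676), TXNRD1 at 2.35 (SE 0.16, adjusted p 2.6e-05) and PIR at 2.27 (SE 0.21, adjusted p 0.00011). CBR3 was at 1.41 (SE 0.22, limma adjusted p 0.00124), TKT at 1.17 (SE 0.24, adjusted p 0.00421), GPX1 at 1.07 (SE 0.22, adjusted p 0.00436), AKR1B1 at 1.07 (SE 0.17, adjusted p 0.00142) and CBR1 at 1.01 (SE 0.18, adjusted p 0.00214). AKR1B10 was at -1.12 (SE 0.21, limma adjusted p 0.00311), and at -0.93 after centring each library on its median, which takes it under the size rule.

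Marker genes moved with the line too, and their part in these differences was not tested. The summed level of 6 epithelial markers was 3848 and 4522 FPKM in AGS and 1772 and 2011 FPKM in MKN1. The median of the 6 was 557 and 640 FPKM in AGS and 19.3 and 28.5 FPKM in MKN1, a wider gap than the sums show. All 6 had limma estimates below 0 for MKN1 minus AGS, with a median of -2.34. The 6 fibroblast markers summed to 16.2 and 30.8 FPKM in AGS and 59.1 and 72.6 FPKM in MKN1, with COL1A2 listed at 0 in all 4 libraries. LYZ, listed among the leukocyte markers, was at 2197 and 2163 FPKM in AGS and at or under 2.01 FPKM in MKN1, whereas CD68, of the same list, was at 3.30 and 2.67 FPKM in AGS and 12.02 and 12.7 FPKM in MKN1. The summed level of the 7 gastric markers was 50.4 and 35.0 FPKM in AGS and 2.30 and 2.10 FPKM in MKN1.

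The gap between the lines was wider in the siHOXB9 libraries than in the controls for many members. Among the siScramble libraries 9 members were at least 2-fold higher in MKN1 and 3 at least 2-fold lower, with a median difference of 0.40. Among the siHOXB9 libraries the same 3 were lower and 17 were higher, with a median of 0.78, and the 17 included GCLC, GCLM, SRXN1 and ABCC1. Over all 13758 rows, 15% were 2-fold higher and 22.5% lower in MKN1 with siScramble (median -0.18), and 18.6% higher and 20.6% lower with siHOXB9 (median -0.03), so the rows as a whole moved the same way. AKR1C1 was 3.98 times as high in MKN1 as in AGS with siScramble and 18.4 times with siHOXB9, and SLC7A11 4.34 and 14.9 times. Both are among the 4 members whose changes differed by at least 1 between the lines. On the log2(FPKM + 1) scale the widening of the gap is that same difference. These ratios are without the added 1 FPKM and rest on low AGS siHOXB9 values, 2.15 FPKM for AKR1C1 and 1.00 FPKM for SLC7A11. With no filter on low values, the fit covered 24308 rows and its prior degrees of freedom were 1.28 in place of 6.17. Under that setting limma called 4 members higher in MKN1 and 2 lower, in place of 13 and 3. The share of all rows called there was not computed.

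**Figure D4:**
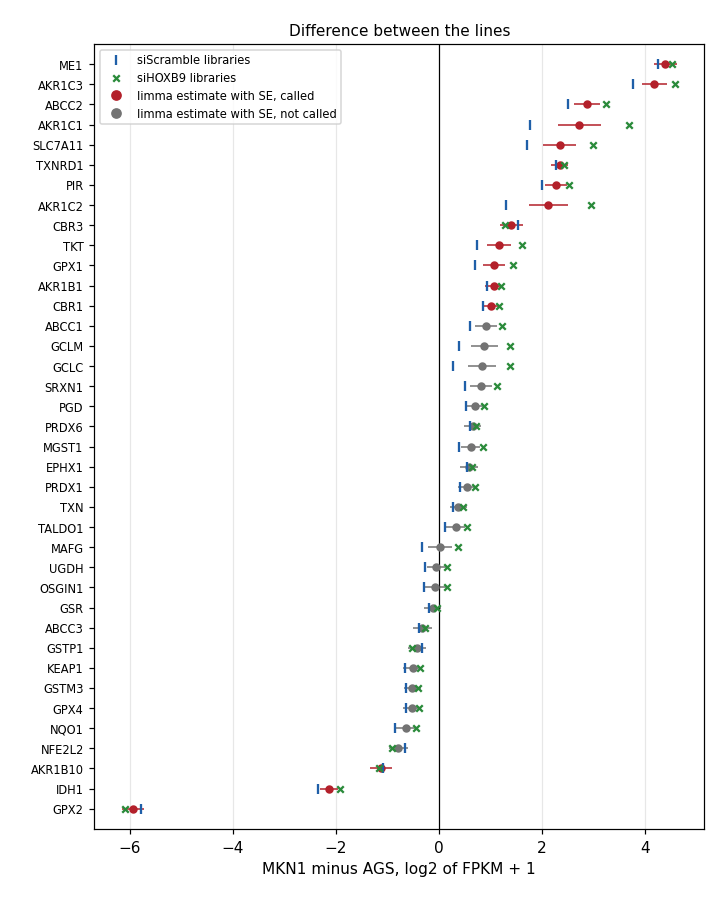
MKN1 minus AGS on the scale of log2(FPKM + 1) for the 38 members tested: points are limma estimates with their standard errors (red where called), bars the difference between the siScramble libraries and crosses that between the siHOXB9 libraries. ME1 and AKR1C3 lie above 4, GPX2 lies near -6, and the bar and the cross are widest apart in AKR1C1 and AKR1C2.

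Other genes of the pathway, in 6 lists of 92 names with 91 rows between them, had the direction that most rows had in each line. In AGS 53 of 81 measured genes were below 0 (median -0.10), against 57% of all rows. There 5 of the 81 were at least 2-fold higher and 4 at least 2-fold lower, larger shares than the 1.68% and 2.21% of all rows. The lists were chosen with earlier results of these data known, so this is not independent evidence. In MKN1 56 of 77 were above 0 (median 0.15), against 63.1% of all rows. Here 3 of the 77 were at least 2-fold higher, a larger share than the 2.1% of all rows. At least 2-fold lower was 1 of the 77, a smaller share than the 1.94% of all rows. Over both lines limma called 0 of 85 at an adjusted p of 0.05. The named genes are those with the largest changes of each list at 5 FPKM or more.

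HMOX1, heme oxygenase and a classical NRF2 target that also responds to the heme sensor BACH1, was higher with siHOXB9 in both lines, at 47.8 and 148 FPKM in AGS and 15.1 and 50.2 FPKM in MKN1 (limma estimate 1.64, SE 0.17, adjusted p 0.0557). FECH, which inserts iron into heme, was lower in both, at 23.6 and 12.8 FPKM in AGS and 38.7 and 20.9 FPKM in MKN1. SLC40A1, the iron exporter ferroportin, was at 17.7 and 39.7 FPKM in AGS and at or under 0.0886 FPKM in MKN1. Of the 8 heme and iron genes, 4 were above 0 and 4 below in AGS, and 6 of 7 were above 0 in MKN1.

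Of the further regulators, BTRC, which targets NRF2 for degradation independently of KEAP1, was at 5.19 and 13.6 FPKM in AGS and 7.30 and 8.58 FPKM in MKN1. SQSTM1, the autophagy receptor that sequesters KEAP1, was at 324 and 366 FPKM in AGS and 753 and 1220 FPKM in MKN1. TRIM16 was at 50.5 and 76.0 FPKM in AGS and 80.1 and 103 FPKM in MKN1. All 3 were higher with siHOXB9 in both lines, and none passed the limma threshold over both lines, with adjusted p-values of 0.682, 0.711 and 0.661.

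Of 9 further glutathione genes 8 were below 0 in AGS and 7 above 0 in MKN1, and of 12 further NADPH and one-carbon genes 10 were below 0 in AGS and 6 above 0 in MKN1. Of all rows, 57% were below 0 in AGS and 63.1% above 0 in MKN1, so the NADPH genes were above 0 in MKN1 at a smaller share than all rows. CHAC1, which degrades glutathione, was at 54.9 and 14.9 FPKM in AGS and 3.00 and 2.85 FPKM in MKN1. CTH, which makes cysteine from cystathionine, was at 12.9 and 6.94 FPKM in AGS and 4.47 and 6.39 FPKM in MKN1, and CBS, the step before it, was at 1.88 and 1.69 FPKM in AGS and 23.1 and 12.1 FPKM in MKN1. MTHFD2 and MTHFD1L, mitochondrial folate enzymes, had log2 changes of -1.07 and -1.01 in AGS and -0.01 and -0.16 in MKN1.

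Among other antioxidant and detoxifying enzymes, TXNIP, the inhibitor of thioredoxin, had log2 changes of 0.70 in AGS and 0.72 in MKN1. GLO1, which clears methylglyoxal with glutathione, had changes of -1.01 and -1.91 (limma adjusted p over both lines 0.172). ALDH1A1, an aldehyde dehydrogenase, was at 5.38 and 16.3 FPKM in AGS and at or under 0.180 FPKM in MKN1, and ABCC5, an efflux pump, was at 6.96 and 9.74 FPKM in AGS and 7.56 and 16.8 FPKM in MKN1. GPX3 and GLRX were lower in AGS, with changes of -0.20 and -0.07, and higher in MKN1, with 0.51 and 0.44.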

How the data were processed

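RNA was selected with poly-T beads, fragmented and made into Illumina libraries, per the labels' protocols. The authors deposited 1 table of FPKM values by gene symbol, 1 column per library, and the submitters' processing notes name GRCh38 and hg38. Which aligner, counter and gene models were used is not given in the sources used here. Members were matched by exact symbol and placed with GENCODE 29, in which 38 of 39 are protein-coding and 14 share exon sequence with another gene.

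Changes within a line are differences of log2(FPKM + 1) among rows that reached 1 FPKM in either library of that line, without a test, with a size rule of 2-fold. Over both lines limma 3.58.1 (R 4.3.3) was fitted with an intensity trend to 13758 rows, two-sided, with Benjamini-Hochberg adjustment at 0.05. It was tested on simulated data with the same noise in all rows and the same siRNA effect in both lines. That checks the code and not the fit to these data. Depth was estimated from low values of single-transcript genes, of which 55.7% to 62.4% fell within 0.05 of whole fragments, so fragment numbers are approximate. Every member was described, and of other pathway lists up to 3 genes each with the largest change at 5 FPKM or more. Some listed genes are not reported here. Members and lists were chosen with earlier results of these data known. The alternatives were another pseudocount, filter, scaling, size rule, variance model and block.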

Additional observations from a re-analysis of the deposited data

Results flagged for a closer look

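In 8 genes, among members and other pathway genes measured in both lines, the change with siHOXB9 had opposite signs in the lines and differed by at least 1 on the scale of log2(FPKM + 1). The MKN1 change minus the AGS change was 1.91 for AKR1C1, 1.65 for AKR1C2, 1.28 for SLC7A11 and 1.10 for GCLC among the members, and 1.49 for ALDH3A1, 1.24 for CTH, 1.023 for CHAC2 and -1.12 for GSTA4 among the other pathway genes. GSTA4 was thus the one that was higher with siHOXB9 in AGS and lower in MKN1. The share of all rows that met this rule was not computed, so the count of 8 has no background to be read against. Each change rests on 1 library per group, and the difference between the lines was not tested. AKR1C1 and AKR1C2 are near-identical copies and are not independent of each other.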

How the results depend on the processing

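The median change of the members stayed below 0 in AGS and above 0 in MKN1 under every alternative run, but its size depended on the scaling. In AGS it was -0.20, and -0.11 after rescaling to a common total and -0.12 after quantile normalization; in MKN1 it was 0.31, and 0.21 after quantile normalization. With a pseudocount of 0.1 FPKM, 1 member was 2-fold higher and 4 lower in AGS, and 4 higher and 1 lower in MKN1. At a size rule of 1.5-fold the counts were 1 higher and 6 lower in AGS, and 10 higher and 1 lower in MKN1. The shares of all rows were not computed at either setting, so these counts have no background to be read against. AKR1C1 missed the 2-fold rule in MKN1 after quantile normalization (0.997), which left 0 members past it. Among members that share no exon, a choice made after seeing the data, 17 were below 0 and 5 above in AGS (of 22), and 18 above 0 in MKN1 (of 23). For MKN1 against AGS, limma called 4 members higher in MKN1 with no filter, a fit over 24308 rows whose share called was not computed. The median difference was 0.40 in the siScramble libraries alone. Centring on each library's median shifts every difference between the lines by 0.19. Over both lines 0 members were called under every alternative, where all rows called ranged from 0 to 8. Leaving out a library leaves no residual degree of freedom for either effect.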
